A study of Mus musculus with 11 samples.

Results

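The genes of oxidative phosphorylation were followed in NIH/3T3, a long-established cell line grown from mouse embryo fibroblasts. Members were the rows of the gene table whose symbols name a subunit or a symbol-matched assembly factor of respiratory complexes I to IV or of ATP synthase (complex V), 111 of 21684 genes in all. Of these, 98 lie in the nuclear genome and 13 are the protein-coding genes of the mitochondrial genome. Complex I accounted for 45 of them, with 8 further complex I assembly factors, complex II for 4, complex III for 10, complex IV for 24 and complex V for 20. A total of 103 members passed the filter on expression and were tested, 90 nuclear and 13 mitochondrial. Of the rest, 4 were at 0 in every library (Cox8b, Cox8c, Ndufb11b and a second row named Atp5o), and 4 fell below the filter (Cox4i2, Cox6b2, Cox7a1 and Ndufa4l2). Ndufa4 and Ndufa4l2, named as complex I subunits, were counted under complex IV, where their proteins are placed. Cox5b-ps is a pseudogene close in name to Cox5b, so reads of the pair may have been shared between them.

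The 11 libraries of total RNA fell into 4 genotypes: 2 libraries of WT and 3 each of Sox5 KO, Nono KO and Xap5 KO. Cells were seeded sparsely in medium with calf serum and then kept without serum for 24 h, in all groups alike, a condition under which these fibroblasts form a primary cilium. The study asked which genes act downstream of Xap5, Nono and Sox5 in that process. The labels name neither the alleles nor separate clones, and they do not say whether replicates were separate cultures, so the p-values measure only the spread between these libraries, which may be technical.

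Oxidative phosphorylation passes electrons from NADH and succinate through complexes I to IV to oxygen, pumps protons across the inner mitochondrial membrane, and lets them flow back through ATP synthase to make ATP. All complexes but complex II are built from subunits of both genomes. The mitochondrial genome encodes core subunits of complexes I, III, IV and V on long polycistronic transcripts that are cut into single mRNAs, whereas the nuclear subunits are transcribed gene by gene. The transcription factors NRF1, GABP (of the ETS family) and YY1 are known to bind upstream of many of the nuclear genes, and PGC-1α, the product of Ppargc1a, is a known coactivator of this programme.

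The promoters of 3 genes are printed as examples of the sequence upstream of nuclear members. They were chosen after the values were seen: Ndufa3 and Atp5k had the 2 largest rises in Sox5 KO after Cox6a2, which was counted 0 times in WT, and Sdhb was not called in any knockout. Each sequence is the 250 bases before the RefSeq transcript start in GRCm38.p6, read 5′ to 3′ on the gene's strand, with the NRF1 core GCATGCGC or its palindromic extension in capitals. The Ndufa3 window lies at chr7:3617123-3617372 on the plus strand, the Atp5k window at chr5:108434400-108434649 on the minus strand, and the Sdhb window at chr4:140961021-140961270 on the plus strand.
Ndufa3 promoter: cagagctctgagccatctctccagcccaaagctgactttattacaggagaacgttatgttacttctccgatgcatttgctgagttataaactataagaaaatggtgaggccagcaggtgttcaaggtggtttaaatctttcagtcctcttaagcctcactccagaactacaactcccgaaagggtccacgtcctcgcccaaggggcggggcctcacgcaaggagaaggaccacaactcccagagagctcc
Atp5k promoter: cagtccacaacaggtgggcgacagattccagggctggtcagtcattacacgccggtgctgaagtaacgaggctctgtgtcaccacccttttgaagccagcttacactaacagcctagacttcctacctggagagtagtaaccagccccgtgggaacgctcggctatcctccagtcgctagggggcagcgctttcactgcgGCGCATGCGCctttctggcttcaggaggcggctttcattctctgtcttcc
Sdhb promoter: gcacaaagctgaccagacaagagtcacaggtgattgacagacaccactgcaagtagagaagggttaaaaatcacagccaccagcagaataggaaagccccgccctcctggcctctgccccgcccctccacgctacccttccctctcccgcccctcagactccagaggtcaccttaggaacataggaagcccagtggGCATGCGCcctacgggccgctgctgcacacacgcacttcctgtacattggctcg
The Ndufa3 window held none of the 3 motifs searched. In Atp5k the core matched at position -48 on the gene's strand and at position -50 on the other strand, in overlapping letters, and in Sdhb it matched once at position -54. As the 3 genes were picked by their values, they cannot show whether the core goes with a change, and this was not tested.

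Of the 98 nuclear members, 78 matched a RefSeq promoter, and these stood for 77 genes. Both strands of the 250 bases were searched for 3 motifs, which were chosen with the values known. The NRF1 core GCATGCGC was found in 11.7% of the 77 member promoters and in 2.56% of the promoters of 27025 genes. The ETS core CCGGAAG was found in 18.2% of member promoters against 7.83% of all. The YY1 core AAGATGGC was found in 1 of the 77 against 1.83% of all. Base composition was not matched between the sets, and a match is a description of letters, not of binding. Among the 13 matched members that were higher in all 3 knockouts, described further on, the NRF1 core was in 1 promoter and the ETS core in 2.

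Levels are given as CPM, the count relative to the scaled size of its library. Library depth ran from 30205878 counts in Sox5 KO replicate 2 to 43498383 in Nono KO replicate 2, and the Sox5 KO libraries were the 3 shallowest. The gene the labels call Xap5, with the mouse symbol Fam50a, stood at 62.9 and 64.8 CPM in WT and at 7.49 to 7.91 in Xap5 KO. Nono stood at 351 and 357 CPM in WT and at 27.6 to 34.0 in Nono KO. Sox5 RNA did not set the Sox5 KO libraries apart: it was at 45.9 and 49.7 CPM in WT, at 12.6 to 13.9 in Sox5 KO, at 11.9 to 15.02 in Xap5 KO and at 7.01 to 8.75 in Nono KO. All 10 fibroblast markers reached 1 CPM, with summed levels of 24297 to 24454 CPM in WT, 18567 to 19833 in Xap5 KO, 48899 to 53784 in Nono KO and 20104 to 20444 in Sox5 KO. None of 4 epithelial and 3 endothelial markers reached 1 CPM, with Krt8 and Krt18 at 0 in every library. Of 3 immune markers 2 reached 1 CPM, and Ptprc stood at 6.00 to 7.31 CPM in Nono KO against at most 0.412 elsewhere. Of 6 striated muscle markers only Tnnt2 reached it.

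In WT the most abundant nuclear member per kilobase of transcript was Atp5b, the catalytic β subunit of ATP synthase, at 316 CPM per kb. Cox8a, a small subunit of complex IV, followed at 225, Cox4i1 at 206 and Atp5a1, the α subunit of ATP synthase, at 162 CPM per kb. The mitochondrial mRNAs (mt-mRNAs) were far above this level, from 473 CPM per kb for mt-Nd3 to 11768 for mt-Co1, the catalytic core of complex IV. Assembly factors were at the low end, with Ndufaf3 at 1.09 CPM per kb.

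The summed CPM of the nuclear members was 4703 and 4779 in WT. It was 5275, 5351 and 5629 in Xap5 KO and 5795, 5352 and 5330 in Nono KO. In Sox5 KO it was 8672, 9328 and 8363. All 9 knockout libraries lay above both WT libraries, and the Sox5 KO libraries lay far above all others. As a share of all counts, without the scaling between libraries, the Nono KO values of 0.553%, 0.505% and 0.507% overlapped the WT values of 0.502% and 0.508%. The 13 mt-mRNAs summed to 58135 and 59065 CPM in WT, to 102557, 83632 and 75545 in Xap5 KO, to 77759, 84565 and 74661 in Nono KO, and to 69326, 61990 and 70175 in Sox5 KO. Every knockout library was again above WT in CPM, whereas as a share of all counts Sox5 KO (6.84%, 6.06% and 6.92%) overlapped WT (6.20% and 6.28%). In bulk RNA, fewer cells expressing a gene and less RNA per cell cannot be told apart.

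The balance of the 2 genomes differed between the knockouts. The ratio of mt-mRNA to nuclear member CPM was 12.4 in both WT libraries. It was 19.4, 15.6 and 13.4 in Xap5 KO and 13.4, 15.8 and 14.01 in Nono KO. In Sox5 KO it was 7.99, 6.65 and 8.39. Xap5 KO and Nono KO thus lay above WT in every library and Sox5 KO below it in every library, a contrast that does not depend on the scaling, since both sums come from the same library. With 2 WT libraries, no permutation test of a single value against 1 knockout can reach 0.05.

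**Figure D1:**
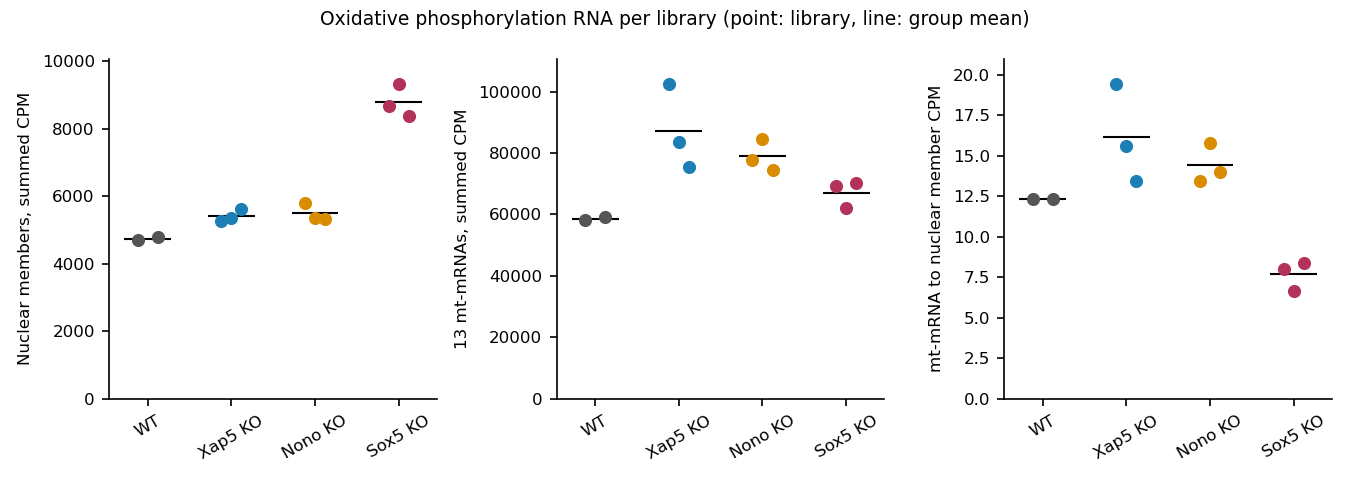
Summed CPM of the nuclear members (left), of the 13 mt-mRNAs (middle) and their ratio (right), with 1 point per library and a line at the group mean. The Sox5 KO libraries reach 8363 to 9328 CPM for the nuclear members, and their ratio of 6.65 to 8.39 lies below the WT ratio of 12.4.

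Sox5 KO had the widest rise of the nuclear genes. Against WT, 81 of the 90 tested nuclear members were higher and 1 was lower, where 30.6% of all 13332 tested genes were higher and 30.3% lower. The median log2 fold change of the nuclear members was 0.88, against -0.01 over all tested genes, and 38 members rose at least 2-fold. Among the 87 nuclear members with at least 10 counts in every library, 80 were higher, 0 were lower and 37 rose at least 2-fold. Higher members were found in every complex, with the lowest medians in complex II (0.51) and among the complex I assembly factors (0.24). Differences were tested by the quasi-likelihood method of edgeR, with p-values adjusted over all tested genes by the Benjamini-Hochberg procedure (BH), and called under 0.05. The number of higher members ranged from 74 to 83 as each library was left out in turn, and the single lower call, Ndufaf3, was lost without WT replicate 2.

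Complex I takes electrons from NADH, and its nuclear subunits are divided into a catalytic core and accessory subunits around it. In Sox5 KO all 7 nuclear core subunits were higher, with a median log2 fold change of 0.78, and 29 of 30 accessory subunits were higher, with a median of 0.99. The exception was Ndufb2, at 0.27. Ndufs1, the largest iron-sulfur subunit of the core, stood at 118 and 122 CPM in WT and at 173, 185 and 168 CPM in Sox5 KO. The fitted log2 fold change was 0.55 (SE 0.08, edgeR BH-adjusted p = 2.54e-06). Ndufa3, a small accessory subunit in the membrane arm, measured 4.29 and 4.63 CPM in the WT libraries, against 5.02, 3.75 and 5.90 in Xap5 KO, 5.31, 3.99 and 3.42 in Nono KO and 17.9, 29.4 and 19.4 in Sox5 KO. The Sox5 KO libraries were the highest by a wide gap, and the other 3 groups overlapped. On the log2 scale the change in Sox5 KO was 2.32 (SE 0.25, edgeR BH-adjusted p = 1.19e-07). Its exons overlap those of Tfpt on the opposite strand, and the handling of strand is not given in the sources used here.

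The assembly factors of complex I help to build the complex but are not part of it. Of the 8 tested Ndufaf genes, 3 were higher in Sox5 KO (Ndufaf5, Ndufaf6 and Ndufaf7) and Ndufaf3 was lower, with a median log2 fold change of 0.24. These are 37.5% higher and 12.5% lower, and the difference from the subunits was not tested. Ndufaf3 was counted 35 and 105 times in the WT libraries and 11, 6 and 15 times in Sox5 KO. Its log2 fold change of -2.24 (SE 0.66, edgeR BH-adjusted p = 0.00578) became -1.34 without WT replicate 2, where the call was lost. The call of Ndufaf6 in Sox5 KO was lost without WT replicate 2 (0.54), without Sox5 KO replicate 1 (0.68) and without Sox5 KO replicate 2 (0.62), and with the length and GC offset (0.35).

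Complex II, succinate dehydrogenase, is built from nuclear genes alone and also works in the tricarboxylic acid cycle. In Sox5 KO 3 of its 4 genes were higher, with a median log2 fold change of 0.51, and the membrane anchors had larger values than the catalytic subunits. Sdhb, the iron-sulfur subunit whose promoter is printed above, measured 52.6 and 48.5 CPM in the WT libraries, against 50.9, 49.3 and 51.2 in Xap5 KO, 55.6, 47.2 and 49.5 in Nono KO and 55.1, 56.3 and 51.7 in Sox5 KO. Each knockout overlapped WT, though Xap5 KO and Sox5 KO did not overlap each other. The log2 fold change of Sdhb in Sox5 KO was 0.11 (SE 0.08, edgeR BH-adjusted p = 0.290). Sdha, the flavoprotein, had a log2 fold change of 0.19 (SE 0.06, edgeR BH-adjusted p = 0.0101). That call was lost without WT replicate 1 (0.17), without WT replicate 2 (0.20) and without Sox5 KO replicate 2 (0.15), and with library totals alone (0.08). Sdhc and Sdhd, the membrane anchors, rose by 0.84 and 0.83. Sdhd stood at 53.6 and 55.8 CPM in WT and at 98.3, 97.3 and 95.7 in Sox5 KO.

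Complex III passes electrons from coenzyme Q to cytochrome c. All 9 tested nuclear members were higher in Sox5 KO, with a median log2 fold change of 0.97. Uqcrq, a small subunit, stood at 23.4 and 25.3 CPM in WT and at 78.8, 94.3 and 80.0 in Sox5 KO, with no overlap. The fitted log2 fold change was 1.79 (SE 0.13, edgeR BH-adjusted p = 4.32e-10). The redox subunits Cyc1 (cytochrome c1) and Uqcrfs1 (the Rieske protein) rose by 0.74 and 0.97, and Uqcrc1 rose least, by 0.46.

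Complex IV, cytochrome c oxidase, had the highest median of the complexes in Sox5 KO, at 1.35, with 14 of 15 tested nuclear members higher. This ranking was not tested and was not adjusted for transcript length, which is described further on. The 14 include Cox6a2, which was counted 0 times in WT. The member not called was Cox7b2, counted 0 times in both groups. The nuclear members of complex IV were all counted as accessory, since the catalytic core is mitochondrially encoded. They include the pseudogene Cox5b-ps, so reads of Cox5b may enter this count and median more than once. Cox8a measured 123 and 125 CPM in the WT libraries, against 187, 178 and 191 in Xap5 KO, 165, 163 and 145 in Nono KO and 369, 449 and 381 in Sox5 KO. The 4 groups did not overlap, in the order WT, Nono KO, Xap5 KO, Sox5 KO. On the log2 scale the change in Sox5 KO was 1.69 (SE 0.08, edgeR BH-adjusted p = 1.47e-13). Cox6b1 and Cox7b rose by 1.65 each, Cox6c by 1.35 and Cox5b by 1.15, while Cox6a1 rose by 0.76 and Ndufa4 by 0.66. With length and GC content of the transcripts held as an offset, Cox6a1 stood at 0.23 and Ndufa4 at 0.11, and both calls were lost.

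ATP synthase consists of the catalytic F1 part and a proton-driven Fo part with its ring of c subunits. In Sox5 KO all 5 tested F1 genes were higher (median log2 fold change 0.80), all 3 genes of the c subunit were higher (1.21), and 8 of 9 other Fo and stalk genes were higher (0.94), the exception being Atp5mpl at 0.48. Atp5b stood at 597 and 614 CPM in WT and at 1086, 1076 and 992 in Sox5 KO, a log2 fold change of 0.80 (SE 0.06, edgeR BH-adjusted p = 2.02e-10). Atp5k, the e subunit at the dimer interface of the enzyme, measured 3.27 and 3.25 CPM in the WT libraries, against 2.60, 2.87 and 4.77 in Xap5 KO, 6.00, 2.26 and 2.40 in Nono KO and 11.7, 21.9 and 12.8 in Sox5 KO. The Sox5 KO libraries were again the highest, though they spread widely. Its log2 fold change was 2.24 (SE 0.50, edgeR BH-adjusted p = 0.00324). Atp5md and Atp5l, other small Fo subunits, rose by 1.74 and 1.68.

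**Figure D2:**
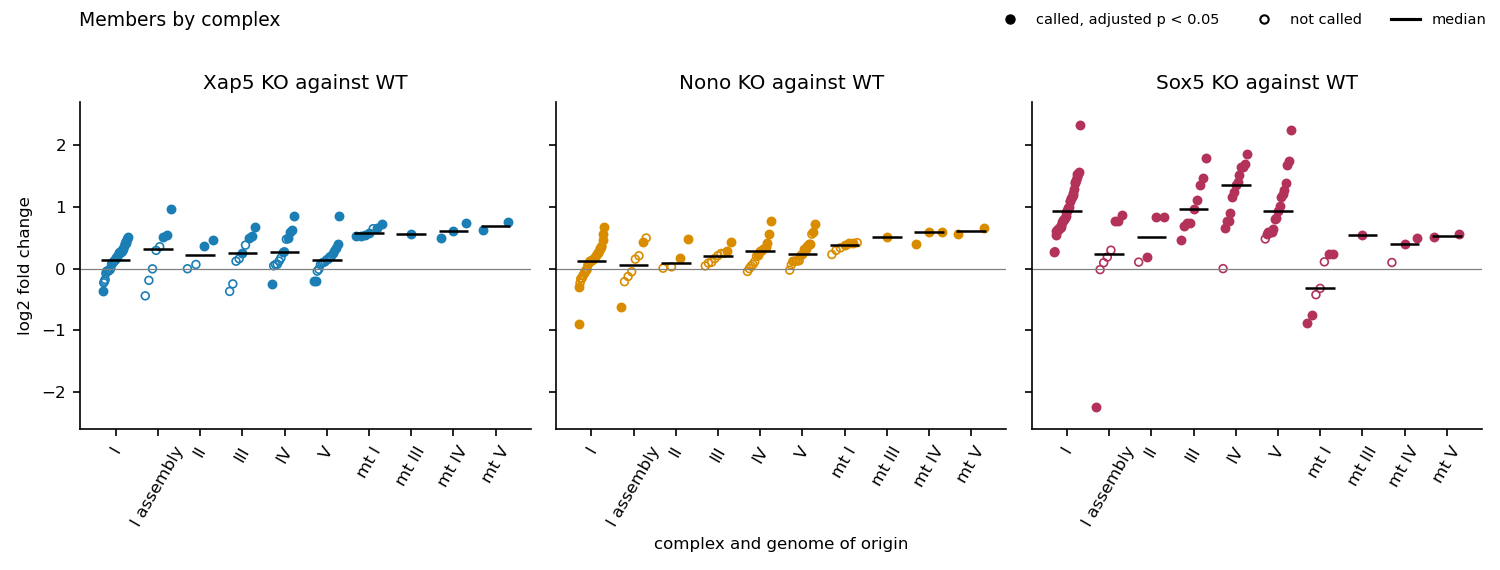
Log2 fold change against WT of each tested member in the Xap5, Nono and Sox5 knockouts, by complex and genome of origin, with filled points for members called at an adjusted p under 0.05, open points for the others, and a line at the median. In Sox5 KO the nuclear medians run from 0.24 for the complex I assembly factors to 1.35 for complex IV, and the mitochondrial complex I genes spread below and above 0. A total of 4 points lie off the scale, Cox6a2 in all 3 knockouts and Cox7b2 in Xap5 KO, each counted 0 times in WT.

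Short transcripts rose in Sox5 KO across the genome, and most nuclear members are short. The median length of the principal transcript was 870 bases for tested nuclear members and 2984 bases for all tested nuclear genes. In Sox5 KO the 808 tested genes under 1 kb had a median log2 fold change of 0.68, with 56.3% higher, and the 50 members among them had a median of 1.15, with 46 higher. From 1 to 2 kb the medians were 0.35 for all 2782 genes and 0.78 for 30 members, of which 27 were higher. At 2 kb and over they were -0.14 for 9690 genes and 0.61 for 10 members, of which 8 were higher. The members' median was above that of all genes in each length class. The length classes were chosen after the values were seen.

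With transcript length and GC content held as an offset in the fit, the median of the nuclear members in Sox5 KO was 0.51, with 66 higher and 3 lower. Among the 90 tested nuclear members, transcript length and the change in Sox5 KO had a Spearman correlation of -0.44. The medians by complex and by role of the subunit given above were not adjusted for length, and their differences were not tested. The part of transcript length in the rise was not tested beyond this offset, these classes and this correlation. In Xap5 KO and Nono KO the offset gave medians of 0.10 and 0.05.

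**Figure D3:**
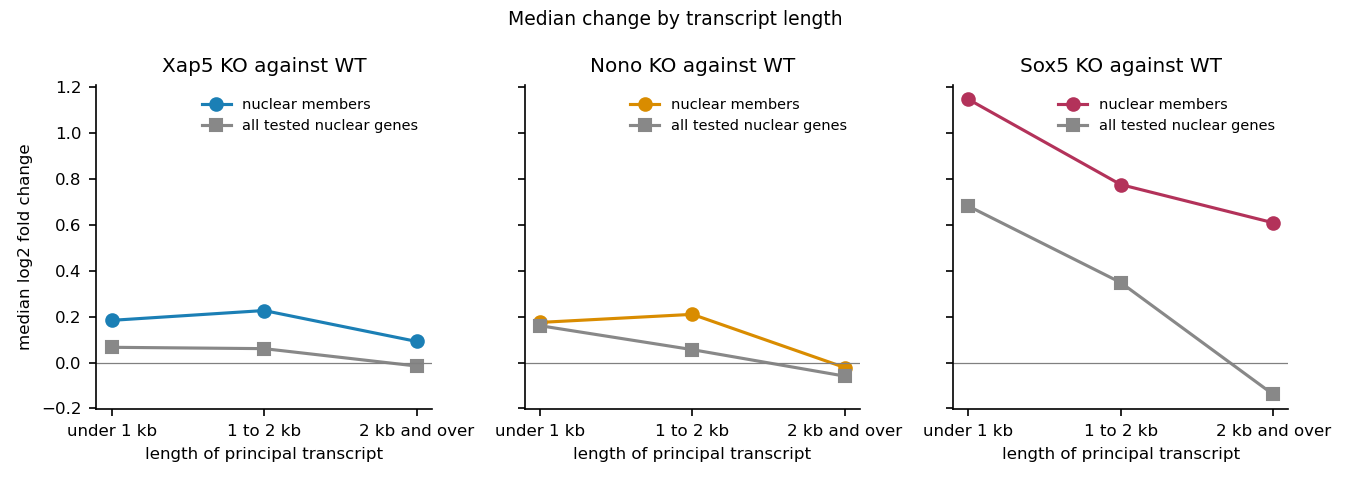
Median log2 fold change against WT for nuclear members (coloured) and all tested nuclear genes (grey) in 3 classes of transcript length, for each knockout. In Sox5 KO both lines fall with length, from 1.15 to 0.61 for members and from 0.68 to -0.14 for all genes.

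In Xap5 KO most changes of the nuclear genes were small. Of the 90 tested nuclear members 30 were higher, against 23.2% of all tested genes, and 4 were lower, against 22.3%. The median log2 fold change was 0.18. Among the 87 nuclear members with at least 10 counts in every library, 29 were higher and 4 lower. Higher members were found in every complex: 11 of 37 in complex I, 3 of 8 assembly factors, 2 of 4 in complex II, 4 of 9 in complex III, 6 of 15 in complex IV and 4 of 17 in complex V. The 23.5% of complex V lay at the share of all tested genes. The calls of Ndufaf2 and Ndufs8 were lost in most alternatives, and that of Ndufaf6 without Xap5 KO replicate 2 (0.80). Held against the median of their chromosome, Cox7a2l (0.12), Uqcrc1 (0.17), Ndufb10 (0.17) and Ndufs4 (0.22) also lost their higher calls. Without WT replicate 1 there were 20 higher and 0 lower members, and the number of lower members was 2 without WT replicate 2 and 2 without Xap5 KO replicate 1.

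Cox5a, a matrix-side subunit of complex IV, measured 38.2 and 41.3 CPM in the WT libraries, against 68.2, 66.1 and 80.4 in Xap5 KO, 67.6, 51.5 and 56.0 in Nono KO and 109, 118 and 113 in Sox5 KO. Every knockout library was above WT, and Sox5 KO was above the other knockouts. The fitted log2 fold change was 0.85 in Xap5 KO (SE 0.10, edgeR BH-adjusted p = 2.33e-06). Atp5o, which joins the stalk of ATP synthase to F1, measured 46.7 and 48.1 CPM in the WT libraries, against 85.7, 86.1 and 84.9 in Xap5 KO, at 75.1, 82.8 and 77.4 in Nono KO, and at 89.2, 94.0 and 89.4 in Sox5 KO. On the log2 scale the change was 0.85 in Xap5 KO (SE 0.07, edgeR BH-adjusted p = 1.65e-09), 0.73 in Nono KO (SE 0.07, edgeR BH-adjusted p = 1.36e-08) and 0.94 in Sox5 KO (SE 0.07, edgeR BH-adjusted p = 1.53e-10). It thus stood close to its Sox5 KO level in all 3 knockouts, and it differed by a called amount between Nono KO and Sox5 KO (log2 difference -0.21) but not between Xap5 KO and Sox5 KO (-0.09, SE 0.06). Atp5o shares exon sequence with the second row of the same name, which was at 0, and with genes on the opposite strand. Sdha rose more in Xap5 KO than in the other knockouts, by 0.46, from 143 and 145 CPM in WT to 204, 204 and 185.

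The 4 lower members in Xap5 KO were Ndufb2 (-0.36), Cox4i1 (-0.26), Atp5d (-0.20) and Atp5g2 (-0.20), all changes of less than 1.5-fold. Cox4i1, the main form of a complex IV subunit, measured 160 and 156 CPM in the WT libraries, against 127, 134 and 135 in Xap5 KO, 199, 172 and 180 in Nono KO and 250, 301 and 256 in Sox5 KO. The groups did not overlap, with Xap5 KO lowest and Sox5 KO highest. Cox4i1 lies on chromosome 8, where the median log2 fold change of 715 tested genes was -0.35 in Xap5 KO, and Atp5d lies on chromosome 10, where that of 643 genes was -0.46. Held against the median of their chromosome, Cox4i1 stood at 0.03 and Atp5d at 0.15. Their calls were also lost when libraries were left out: Cox4i1 without WT replicate 1 (-0.25), Atp5d without WT replicate 1 (-0.22), WT replicate 2 (-0.20) or Xap5 KO replicate 2 (-0.16), and Atp5g2 without WT replicate 1 (-0.12) or Xap5 KO replicate 1 (-0.18). Ndufb2 lost its call without either WT replicate (-0.36 and -0.38) and without Xap5 KO replicate 1 (-0.30) or 2 (-0.32). Held against the median of chromosome 6, which was -0.25, Ndufb2 stood at -0.15 and was not called.

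In Nono KO changes of the nuclear genes were again small. Of the 90 tested nuclear members 27 were higher, against 23.5% of all tested genes, and 3 were lower, against 25.1%, with a median log2 fold change of 0.16. Among the 87 nuclear members with at least 10 counts in every library, 26 were higher and 3 lower. Of the 27 higher members, complex V had the largest part, with 8 of 17 higher. Complex IV followed with 7 of 15 and complex I with 7 of 37. Of the remaining higher members, 2 of 9 were in complex III, 2 of 4 in complex II, and 1 of 8 was an assembly factor. The count of 27 higher members depended on the scaling. With library totals alone, which moved the median of all genes by -0.16, 14 members were higher and 10 lower. Without WT replicate 1, 16 were higher, and 1 was lower without WT replicate 2 or without Nono KO replicate 2.

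Cox7a2, a complex IV subunit, measured 20.7 and 22.6 CPM in the WT libraries, against 20.8, 24.3 and 25.6 in Xap5 KO, 38.9, 32.9 and 38.5 in Nono KO and 59.7, 61.7 and 50.01 in Sox5 KO. Xap5 KO overlapped WT, while Nono KO and Sox5 KO lay above both. Its log2 fold change in Nono KO was 0.76 (SE 0.11, edgeR BH-adjusted p = 8.26e-06). The call of Cox7a2 was kept when held against the median of its chromosome. Among the higher members named here, Uqcrc1 (0.008), Sdha (0.11) and Uqcrb (0.38) lost their Nono KO calls in that fit. Ndufaf4, an assembly factor, fell by 0.63 in Nono KO, from 17.0 and 18.0 CPM in WT to 10.6, 11.6 and 11.8, and kept its call in every alternative run. Ndufb2 fell by 0.29, at an edgeR BH-adjusted p of 0.0490, and lost this call in most alternatives.

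The 3 members Ndufa1, Ndufb11 and Cox7b lie on the X chromosome, where the 438 tested genes had median log2 fold changes of 0.36 (Xap5 KO), -0.33 (Nono KO) and 0.14 (Sox5 KO). Ndufa1, an accessory subunit of complex I, measured 11.9 and 14.4 CPM in the WT libraries, against 14.9, 16.0 and 23.9 in Xap5 KO, 8.83, 6.58 and 5.74 in Nono KO and 29.1, 43.8 and 33.6 in Sox5 KO. Nono KO was the lowest group and Sox5 KO the highest, with no overlap between the 4 groups. The fitted log2 fold change in Nono KO was -0.89 (SE 0.25, edgeR BH-adjusted p = 0.0133). The call was lost against the chromosome's median (-0.62), without WT replicate 2 (-0.74) and without Nono KO replicate 2 (-0.84). Cox7b rose by 0.63 in Xap5 KO and stood at -0.05 in Nono KO.

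**Figure D4:**
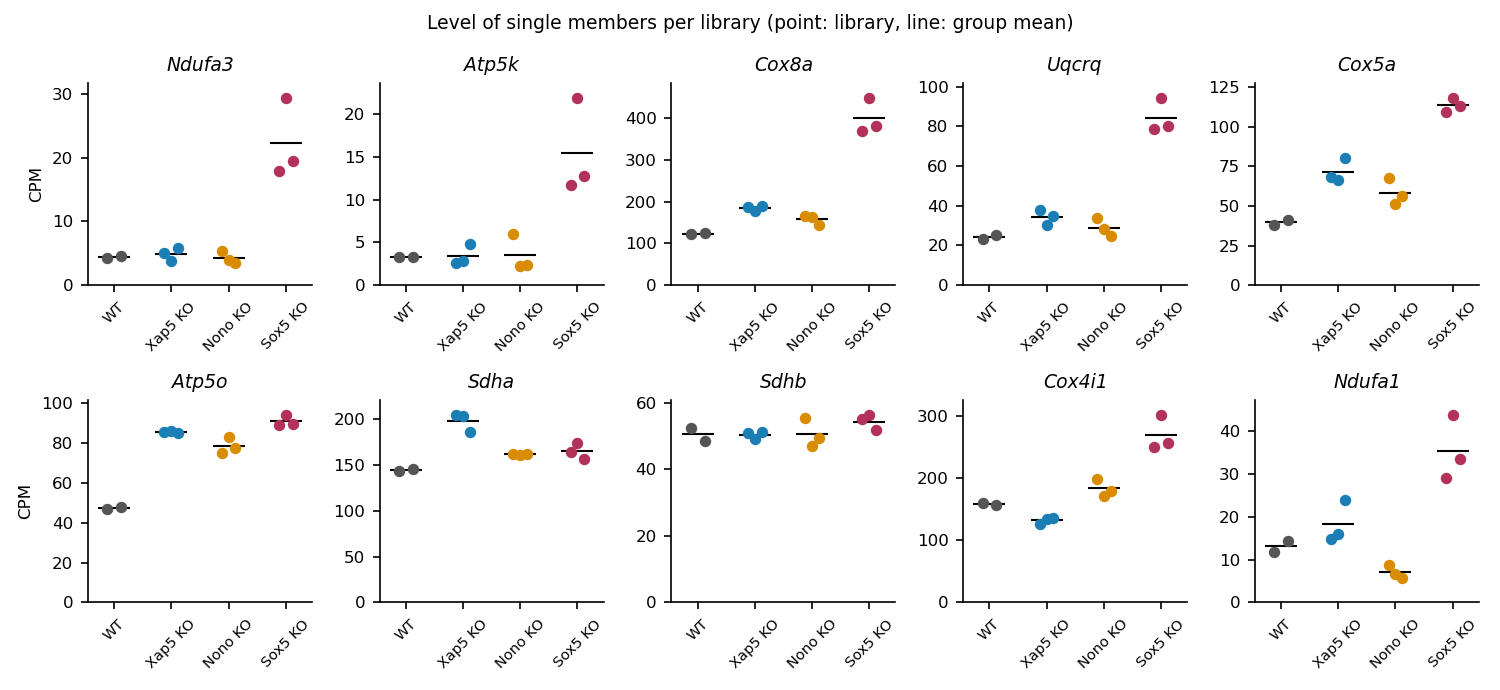
CPM of 10 nuclear members in each library, with 1 point per library, a line at the group mean and each vertical axis starting at 0. Ndufa3 and Atp5k stand apart in Sox5 KO alone, Atp5o is raised in all 3 knockouts, and Sdhb overlaps WT in each knockout. Cox4i1 and Ndufa1 are lowest in Xap5 KO and Nono KO, respectively.

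A set of 14 of the 90 nuclear members was higher than WT in all 3 knockouts, a pattern found in 8.33% of all tested genes, and 0 were lower in all 3, found in 7.61%. The 3 comparisons share the WT libraries, so this count is not support from independent comparisons. The set drew on every complex: Ndufb10, Ndufs4 and Ndufv2 of complex I with the assembly factor Ndufaf7, Sdha and Sdhd of complex II, Uqcrb and Uqcrc1 of complex III, Cox5a, Cox6a1, Cox7a2l and Cox8a of complex IV, and Atp5c1 and Atp5o of ATP synthase. Of the 14, 6 kept all 3 calls under every alternative apart from the 1.5-fold minimum: Ndufaf7, Sdhd, Cox5a, Cox8a, Atp5c1 and Atp5o. Atp5c1, the γ subunit that turns inside F1, measured 111 and 116 CPM in the WT libraries, against 140, 154 and 151 in Xap5 KO, 145, 138 and 139 in Nono KO and 257, 252 and 246 in Sox5 KO. By the calls against WT alone, 38 further members were higher in Sox5 KO and not called in the others, against 7.26% of all tested genes. Another 4 were called in none, against 19.7% (Ndufaf1, Ndufaf8, Sdhb and Atp5mpl), and 4 were called in opposite directions in different knockouts, against 14.8% (Ndufa1, Cox4i1, Atp5d and Atp5g2).

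The knockouts were also compared with each other directly. Between Xap5 KO and Sox5 KO, 88 of the 103 tested members were called in either direction, against 61.6% of all tested genes. Of these, 77 were nuclear members lower in Xap5 KO, and the 3 nuclear members higher there were Sdha, Ndufaf3 and Cox7b2. Between Nono KO and Sox5 KO, 84 members were called, against 63.5% of all genes, with 77 nuclear members lower in Nono KO and only Ndufaf3 higher. Between Xap5 KO and Nono KO, 34 members were called, against 53.0% of all genes. There 18 nuclear members were higher in Xap5 KO, among them Ndufa1, Cox7b, Cox5a and Sdha, and 15 were lower, among them Cox4i1, Cox7a2, Atp5b and Atp5g2. In all, 73 nuclear members were higher in Sox5 KO than in WT and than in each of the other knockouts, by the test of each difference, against 16.8% of all tested genes.

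Subunits with tissue-specific forms were mostly present as a single form. The widely expressed forms Cox4i1, Cox6a1, Cox6b1, Cox7a2 and Cox8a were all well above the filter, while Cox4i2, Cox6b2 and Cox7a1 did not exceed 15 counts in any library, and Cox8b and Cox8c were at 0. Cox6a2 is the heart and muscle form. Of the 6 striated muscle markers Myh1 and Myh6 were at 0 in every library and the other 4 were detected at low levels, with sums of 1.52 to 3.30 CPM in WT, 1.03 to 1.63 in Xap5 KO, 0.444 to 0.974 in Nono KO and 0.203 to 0.464 in Sox5 KO. Cox6a2 was counted 0 and 0 times in WT, 2, 6 and 2 times in Xap5 KO, 17, 16 and 14 times in Nono KO, and 4, 11 and 0 times in Sox5 KO. Against a floor of 3 counts per WT library, it was at least 5.59-fold higher in Nono KO. Cox7b2, a testis form, was counted 4, 16 and 22 times in Xap5 KO and 0 times in every other library, at least 4.95-fold higher than WT by the same floor. Both passed the filter only through knockout libraries, so a difference from WT was required of them, and both calls were lost without either WT library, though the fitted log2 values stayed at 6.90 to 6.92 for Cox6a2 and 6.71 to 6.73 for Cox7b2. The Cox7b2 call was also lost with no expression filter (6.74), with the replicate block (6.24) and with the block and the length and GC offset together (6.36). The Sox5 KO call of Cox6a2 was lost in the same way, without Sox5 KO replicate 2, and with the length and GC offset (5.29). Floors cover counting error only, since PCR copies are not independent molecules.

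In Xap5 KO 12 of the 13 mt-mRNAs were higher, against 23.2% of all tested genes, and 13 of 13 fold changes were positive, from 0.50 to 0.75 on the log2 scale with a median of 0.61. In Nono KO 9 were higher, against 23.5% of all tested genes, with fold changes from 0.23 to 0.65 over all 13, with a median of 0.42. In Sox5 KO 7 were higher, against 30.6% of all tested genes, and 2 were lower, against 30.3%, with fold changes from -0.87 to 0.56. The mt-mRNAs come from a few long transcripts and are not independent of each other. Without WT replicate 1 the counts of higher mt-mRNAs were 7 in Xap5 KO, 2 in Sox5 KO and 5 in Nono KO, and without WT replicate 2 they were 7 in Xap5 KO and 3 in Sox5 KO. In Sox5 KO 4 were higher without Sox5 KO replicate 1 or without replicate 3.

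In Xap5 KO the rise was shared along the whole genome. mt-Co1 measured 18210 and 18155 CPM in the WT libraries, against 29693, 25101 and 22333 in Xap5 KO, 23630, 25958 and 22510 in Nono KO and 24898, 22242 and 24892 in Sox5 KO. Every knockout library was above WT, and the knockouts overlapped. On the log2 scale the change was 0.50 in Xap5 KO (SE 0.10, edgeR BH-adjusted p = 0.000292), 0.40 in Nono KO (SE 0.10, edgeR BH-adjusted p = 0.00178) and 0.40 in Sox5 KO (SE 0.10, edgeR BH-adjusted p = 0.00130). Xap5 KO replicate 1 was the highest library for 12 of the 13 mt-mRNAs, mt-Nd3 being the exception. mt-Cytb, the mitochondrial subunit of complex III, rose by 0.55 with Xap5 KO, 0.52 with Nono KO and 0.54 with Sox5 KO, and it kept its calls under every alternative apart from the 1.5-fold minimum, as did mt-Co1. The other 5 mt-mRNAs higher in all 3 knockouts were mt-Nd1, mt-Nd2, mt-Co2, mt-Atp6 and mt-Atp8, each of which lost a Sox5 KO call without WT replicate 1.

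In Sox5 KO the fold changes differed along the genome. From mt-Nd1 to mt-Atp6, the first 6 mRNAs in order, fold changes were 0.23 to 0.56 and all 6 were called. The call of mt-Atp8 was lost in most alternatives, among them no expression filter (0.50) and the replicate block (0.545). With library totals alone mt-Nd1 (0.13) and mt-Nd2 (0.12) lost theirs, and without Sox5 KO replicate 1 mt-Co2 (0.47) and mt-Atp6 (0.45) did. mt-Co3 and mt-Nd3, which follow, stood at 0.10 and 0.11 and were not called. The next 4, mt-Nd4l, mt-Nd4, mt-Nd5 and mt-Nd6, stood at -0.87, -0.42, -0.76 and -0.32, with mt-Nd4l and mt-Nd5 called lower. mt-Cytb, the last, rose by 0.54. These 4 mRNAs from mt-Nd4l to mt-Nd6 encode subunits of complex I, and mt-Nd4 and mt-Nd6 among them were not called. Of the same complex, mt-Nd1 and mt-Nd2 rose by 0.24 and 0.23.

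mt-Nd5 measured 7038 and 7277 CPM in the WT libraries, against 12422, 10302 and 9326 in Xap5 KO, 8922, 10408 and 9185 in Nono KO and 4055, 3845 and 4813 in Sox5 KO. Sox5 KO lay below WT, and the other knockouts lay above it. Its log2 fold change in Sox5 KO was -0.76 (SE 0.12, edgeR BH-adjusted p = 7.42e-05). mt-Nd4l stood at 836 and 797 CPM in WT and at 439, 410 and 487 in Sox5 KO, a log2 fold change of -0.87 (SE 0.17, edgeR BH-adjusted p = 0.00185). Both kept their lower calls in Sox5 KO under every alternative run. mt-Nd4 stood at 5695 and 5752 CPM in WT and at 4789, 3616 and 4414 in Sox5 KO, all below WT, at an edgeR BH-adjusted p of 0.0518. The exons of mt-Nd4l and mt-Nd4 overlap, as do those of mt-Nd5 and mt-Nd6 on opposite strands, so their counts may be mixed.

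Ratios within a library do not depend on the scaling. The ratio of mt-Nd5 to mt-Co1 counts was 0.386 and 0.401 in WT, 0.418, 0.410 and 0.418 in Xap5 KO, 0.378, 0.401 and 0.408 in Nono KO, and 0.163, 0.173 and 0.193 in Sox5 KO. The share of mt-Nd5 in all mt-mRNA counts was 12.2% ± 0.151 in WT (mean and SD of 2 libraries). In the knockouts (3 libraries each) it was 6.30% ± 0.512 for Sox5 KO, 12.3% ± 0.127 for Xap5 KO and 12.03% ± 0.480 for Nono KO. That of mt-Co1 was 31.0% ± 0.415 in WT and 35.8% ± 0.247 in Sox5 KO. In Xap5 KO and Nono KO the composition stayed close to that of WT for these mRNAs. The ratios were chosen after the values were seen. Tested directly, 8 of 13 mt-mRNAs were lower in Sox5 KO than in Xap5 KO (all 7 of complex I and mt-Co3), and 6 of 13 lower than in Nono KO (mt-Nd1, mt-Nd4, mt-Nd4l, mt-Nd5, mt-Nd6 and mt-Co3).

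**Figure D5:**
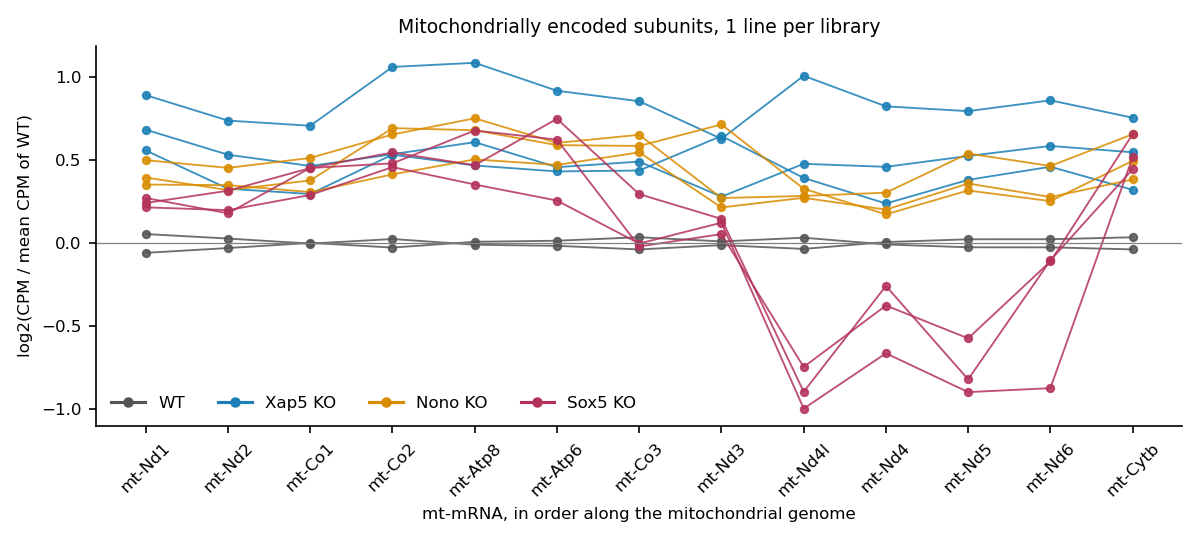
Log2 ratio of each mt-mRNA's CPM to its WT mean, in order along the mitochondrial genome, with 1 line per library coloured by genotype. Xap5 KO and Nono KO lie above 0 throughout, whereas the Sox5 KO libraries fall below 0 from mt-Nd4l to mt-Nd6 and return above it at mt-Cytb.

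Further lists held genes that serve the same pathway, and their counts are read against all tested genes, of which 23.2% were higher and 22.3% lower in Xap5 KO, 23.5% and 25.1% in Nono KO, and 30.6% and 30.3% in Sox5 KO. Of 78 tested genes of the mitochondrial ribosome, which translates the mt-mRNAs, 30 were higher and 4 lower in Xap5 KO, 18 and 7 in Nono KO, and 61 and 2 in Sox5 KO, with a Sox5 KO median log2 fold change of 0.63. The higher share of this list in Nono KO, 23.1%, was that of all genes, whereas in Sox5 KO it was 78.2%. Neither this list nor the others were matched to all genes in transcript length. In Sox5 KO, 56.3% of all tested nuclear genes under 1 kb and 46.2% of those from 1 to 2 kb were higher. The part of length in the list counts was not tested. Of 19 genes of the tricarboxylic acid cycle and its entry, 11 were higher and 1 lower in Xap5 KO, 8 and 2 in Nono KO, and 16 and 3 in Sox5 KO. Pcx, pyruvate carboxylase, which feeds the cycle with oxaloacetate, moved most of them in each knockout, by 1.96, 1.52 and 2.05. Of 8 tested genes of nucleotide and phosphate carriers, uncoupling proteins and outer-membrane channels, 2 were higher and 3 lower in Xap5 KO, 1 and 3 in Nono KO, and 7 and 0 in Sox5 KO. Slc25a5, an ADP/ATP exchanger on the X chromosome, rose by 0.85 in Xap5 KO, fell by 0.39 in Nono KO and rose by 1.14 in Sox5 KO. Of 14 tested genes of cytochrome c and coenzyme Q synthesis, 6 were higher and 3 lower in Xap5 KO, 3 and 1 in Nono KO, and 7 and 0 in Sox5 KO. Cycs, cytochrome c itself, rose by 0.47 in Sox5 KO.

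Assembly factors were listed by the complex they serve, and differences between these short lists were not tested. Among 17 tested for complex I, which include the Ndufaf genes, 5 were higher and 0 lower in Xap5 KO, 4 and 1 in Nono KO, and 6 and 3 in Sox5 KO. Of 4 for complex II, 1 was higher and 2 lower in Xap5 KO, 0 and 1 in Nono KO, and 3 and 0 in Sox5 KO. Of 9 for complex III, 7 were higher in Sox5 KO, 2 in Nono KO and 2 in Xap5 KO, with 0 lower, with Uqcc5 at 1.97 in Sox5 KO. Of 24 for complex IV, 4 were higher and 1 lower in Xap5 KO, 9 and 2 in Nono KO, and 12 and 1 in Sox5 KO. Of 5 for complex V, 0, 2 and 4 were higher and 0 lower. Several of the higher shares in Xap5 KO and Nono KO, such as 22.2% for complex III in both and 23.5% for complex I in Nono KO, lay at the shares of all tested genes given above.

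Of 11 tested transcriptional regulators of mitochondrial genes, 3 were higher and 3 lower in Xap5 KO, 2 and 4 in Nono KO, and 2 and 6 in Sox5 KO. The Xap5 KO shares, 27.3% in each direction, were close to the 23.2% and 22.3% of all tested genes, and in Sox5 KO 54.5% were lower against 30.3%. Ppargc1a was counted 12 and 26 times in WT, 1189, 1316 and 1553 times in Xap5 KO, 173, 186 and 181 times in Nono KO, and 2, 3 and 17 times in Sox5 KO. The Xap5 KO and Nono KO libraries were all above WT, while Sox5 KO overlapped WT at low counts. The fitted log2 fold change was 6.24 in Xap5 KO (SE 0.40, edgeR BH-adjusted p = 2.43e-08), 3.35 in Nono KO (SE 0.39, edgeR BH-adjusted p = 9.80e-06) and -0.92 in Sox5 KO (SE 0.59, edgeR BH-adjusted p = 0.199). Esrra, a nuclear receptor that works with PGC-1α, rose by 0.51 in Xap5 KO and by 1.00 in Sox5 KO and fell by 0.32 in Nono KO. Nrf1 fell in all 3 knockouts, by 0.28, 0.38 and 0.44, and Gabpa and Yy1 fell in Sox5 KO by 0.49 and 0.63. The values of these regulators are not set against the medians of their chromosomes here.

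Of 31 tested genes of mitochondrial DNA replication, transcription and RNA stability, 7 were higher and 5 lower in Xap5 KO, 2 and 7 in Nono KO, and 12 and 5 in Sox5 KO. The 22.6% higher in Xap5 KO and the 22.6% lower in Nono KO were near the 23.2% and 25.1% of all tested genes. Polrmt, the mitochondrial RNA polymerase, fell in all 3 knockouts, by 0.51, 0.35 and 0.43. Tfam, which packages mitochondrial DNA and starts its transcription, fell by 0.64 in Xap5 KO and 0.26 in Nono KO and stood at -0.11 in Sox5 KO. In Xap5 KO it was at 23.5, 24.8 and 30.1 CPM against 39.8 and 41.6 in WT, with no overlap. Tfb1m, which methylates mitochondrial ribosomal RNA, rose by 1.505, 1.385 and 0.747. Prorp, a protein subunit of the RNase P that cuts tRNAs out of the mitochondrial transcripts, fell by 0.79 in Sox5 KO. This was the largest called change of that list there, from 13.07 and 12.96 CPM in WT to 7.11, 8.07 and 7.43. For genes of the further lists, values held against the median of their chromosome are not given here. Chromosome medians went as low as -0.46 in Xap5 KO (chromosome 10) and -0.75 in Sox5 KO (chromosome 12). The changes in Nrf1, Gabpa, Yy1, Polrmt, Tfam and Prorp are therefore not set apart here from shifts of whole chromosomes.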

How the data were processed

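RNA from 11 libraries of NIH/3T3 cells was sequenced. The deposited table gives expected counts (whole-number estimated counts) per gene and library, which the authors made with HISAT2 2.1.0, StringTie 1.3.3b and DESeq2 1.12.4 on GRCm39, per the submitters' processing notes. The roles of these tools, the handling of strand and read mates, and the annotation are not given in the sources used here. The value 2 occurs 3302 times, more often than 1 (857 times), so a count may stand for more than 1 unit per fragment, and counting error may be understated.

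Groups came from the sample labels. Of 21684 genes, 13332 passed edgeR's expression filter (minimum count 10, minimum total 15). Counts were scaled by TMM, and 1 mean per genotype was fitted over all 11 libraries with edgeR 4.0.16 (R 4.3.3) and tested by its robust quasi-likelihood test, with Benjamini-Hochberg adjustment over all tested genes. Calls were made under an adjusted p of 0.05. CPM are relative to the TMM-scaled library size. The method was tested on simulated data. These were drawn independently from a profile shared by all libraries, with the fitted spread. They held no shifts by chromosome or transcript length, so the simulation cannot speak to such shifts.

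GENCODE M21 (GRCm38) supplied chromosome, principal transcript length, GC content and exon overlap by gene ID, for 21540 IDs and for 99.7% of tested genes. Promoters came from RefSeq on GRCm38.p6, another build than the authors', and no coordinates were converted. The alternatives were DESeq2 1.42.0 size factors and its Wald test, library totals alone, scaling without mitochondrial genes, no filter, at least 10 counts in every library, a minimum of 1.5-fold, only the groups compared, a replicate block, an offset for length and GC content (mgcv 1.9.3), both together, a chromosome offset, and 11 fits leaving out 1 library each. The members and lists were chosen with earlier results of these data known. Named genes were the 13 mt-mRNAs, the 8 highest and 8 lowest called nuclear members of each knockout, isoform families, catalytic subunits, members called in all knockouts, the targeted genes and the largest change of each list. Others, the complexes' subdivision, the motifs, the printed promoters, the length classes and the ratios were chosen after values were seen.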

Additional observations from a re-analysis of the deposited data

How the results depend on the processing

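With a minimum of 1.5-fold, higher nuclear members numbered 6 rather than 30 in Xap5 KO and 5 rather than 27 in Nono KO, lower ones 0 rather than 4 in Xap5 KO, and higher mt-mRNAs 6 rather than 12 in Xap5 KO, 3 rather than 9 in Nono KO and 0 rather than 7 in Sox5 KO. The members called between Xap5 KO and Nono KO numbered 7 rather than 34. This follows from the smaller set that can pass. With library totals alone, Nono KO had 14 higher and 10 lower nuclear members, and Sox5 KO had 4 higher mt-mRNAs. With the length and GC offset, lower nuclear members numbered 6 rather than 3 in Nono KO and 3 rather than 1 in Sox5 KO, and with the replicate block added 5 and 2. With the chromosome offset they numbered 1 in Xap5 KO and 1 in Nono KO, and 22 members were called between Xap5 KO and Nono KO. With at least 10 counts in every library, Sox5 KO had 0 lower nuclear members. The cause was not tested.

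As each library was left out in turn, higher nuclear members ran from 20 to 31 in Xap5 KO, 16 to 30 in Nono KO and 74 to 83 in Sox5 KO, and lower ones from 0 to 6, 1 to 3 and 0 to 1. Higher mt-mRNAs ran from 7 to 13, 5 to 10 and 2 to 7, and lower ones from 0 to 0, 0 to 0 and 2 to 3. Members called between knockouts ran from 28 to 39 (Xap5 KO against Nono KO), 84 to 88 (Xap5 KO against Sox5 KO) and 80 to 87 (Nono KO against Sox5 KO). A fit that leaves WT with 1 library assumes that it varies like the other groups.

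Of 4397 values of named genes under alternatives, 4053 kept their direction and side of the threshold, 268 lost and 69 gained a call, and 7 changed sign where a call was made in either fit. A further 93 changed sign where neither fit called them and were counted as kept. The 7 were Atp5d (0.15), Cox4i1 (0.030) and Ndufs7 (0.33) in Xap5 KO and Cox7b (0.23) in Nono KO with the chromosome offset, Ndufa4 in Nono KO (-0.19) and Sdhb in Sox5 KO (-0.30) with the length and GC offset, and Sdhb in Sox5 KO (-0.29) with that offset and the block.

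Deviations from the group mean correlated at -0.077 to 0.103 in the 15 same-numbered pairs of libraries, and at -0.183 to 0.136 in the 30 others. With so few libraries per group these deviations are tied to each other. They cannot show whether replicate numbers paired the libraries. With the replicate block, higher and lower nuclear members numbered 29 and 3 in Xap5 KO, 27 and 3 in Nono KO and 78 and 1 in Sox5 KO, and mt-mRNAs 12 and 0, 9 and 0, and 6 and 2.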
